A study of Mus musculus with 6 samples.

Results

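The CIS and SOCS genes encode cytokine-inducible inhibitors of cytokine signalling, and the positions of Ikaros at all 8 of them (Cish and Socs1 to Socs7) were examined in mouse natural killer (NK) cells. Chromatin immunoprecipitation with sequencing (ChIP-seq) against Ikaros, a zinc finger DNA-binding protein and the product of Ikzf1, gave 1 peak list for each of 3 wild-type (WT) libraries. The cells were splenic NK cells grown out of the body in IL-15 at 50 ng/ml. Members were taken as peaks whose gene, in the authors' own gene column, was 1 of the 8, together with any peak over the Cish start, which added none. This gave 6 of 4111 peaks, falling in 3 of 2526 regions, where a region joins peaks that share at least 1 base. The other 3 of the 6 libraries, in which Ikzf1 was deleted under the control of NKp46, a receptor of NK cells, were not analysed here. Whether these libraries represent different mice or different cultures is not stated in the labels, and differences among the lists may therefore be technical only. Peak lists hold no expression values, so the cell identity could not be checked against markers.

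All members share an SH2 domain, which docks on phosphorylated tyrosines of receptors or kinases, and a SOCS box, which recruits an Elongin and Cullin-5 ubiquitin ligase. Cytokine binding activates JAK kinases, which phosphorylate STAT factors, and STATs switch on several CIS and SOCS genes, whose products then dampen the same signal. In NK cells CIS, the product of Cish, is known as a brake on IL-15 signalling through STAT5.

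The 3 lists differed in length, with 685 peaks in WT replicate 1, 2084 in replicate 2 and 1342 in replicate 3. Fold enrichment is the authors' linear ratio of a peak over its background, and its median was 5.10, 4.73 and 4.99 in the same order. A percentile is the rank of a peak's fold enrichment within its own list, 100 being the strongest peak. The read depth behind the lists is unknown.

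Cish and Socs1 are the members with a region in 2 or more lists. Their promoters are shown first because their peaks lay over all or part of these bases. They are RefSeq sequences of build GRCm38.p6, the assembly that mm10 names, written 5′ to 3′ on the strand of the gene. Cish lies at chr9:107296409-107296678 on the plus strand, from 250 bases before the RefSeq start to 20 bases into the transcript. The Cish peaks of WT replicates 2 and 3 cover all of it, and that of replicate 1, from 107296547, covers the later part. Capitals mark both matches to TTCNNNGAA, the palindromic letters that STAT factors bind. Socs1 lies at chr16:10785537-10785786 on the minus strand, the 250 bases before its start. Capitals there mark TGGGAA, the core letters that Ikaros binds. Socs3 is represented by 30 bases at chr11:117969501-117969530 on the minus strand, around its 1 match to the STAT letters in capitals, as a member that holds such letters without a peak.
Cish: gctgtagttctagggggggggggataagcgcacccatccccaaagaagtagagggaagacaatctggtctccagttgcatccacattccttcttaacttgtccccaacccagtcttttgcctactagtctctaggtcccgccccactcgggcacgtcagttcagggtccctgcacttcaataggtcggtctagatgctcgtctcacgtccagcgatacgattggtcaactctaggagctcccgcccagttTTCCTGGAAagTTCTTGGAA
Socs1: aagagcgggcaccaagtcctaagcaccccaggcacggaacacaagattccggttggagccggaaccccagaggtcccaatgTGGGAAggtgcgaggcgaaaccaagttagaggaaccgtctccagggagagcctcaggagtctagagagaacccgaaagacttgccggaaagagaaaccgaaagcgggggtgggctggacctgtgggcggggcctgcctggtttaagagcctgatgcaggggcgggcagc
Socs3: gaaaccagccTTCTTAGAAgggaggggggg

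Ikaros peaks were listed at 3 of the 8 genes: Cish in every list, Socs1 in 2 lists and Socs5 in 1 list. Socs2, Socs3, Socs4, Socs6 and Socs7 had no peak of their own in any list. Across 21900 protein-coding genes of the RefSeq table, 9.39% had a region in 1 or more lists by the authors' gene column, against 3 of 8 members. A region in 2 or more lists was found for 4.38% of all genes and for 2 members, Cish and Socs1. A region in all lists was found for 2.00% of all genes and for 1 member, Cish. The members' counts stand above these shares but rest on 1 to 3 genes, and the genes were chosen with results of these data known, so no test was made. Gene spans of the members ran from 1.73 kb (Socs1) to 36.3 kb (Socs7), around the median of 17.1 kb for all protein-coding genes. Without WT replicate 2 or WT replicate 3, Cish was the 1 member with a region in both remaining lists, and without WT replicate 1 both Cish and Socs1 had one.

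Cish (ENSMUSG00000032578), on chromosome 9 with a RefSeq span of 107296659 to 107302784, carried the strongest member peak in every list. Its fold enrichment was 12.7 in WT replicate 1, 17.6 in replicate 2 and 13.8 in replicate 3 (mean 14.7, SD 2.54, n = 3). Each value was 2.50, 3.72 and 2.77 times the median of its list. The −log10 q values were 24.9, 47.8 and 31.8, so all lists placed the peak far beyond their weakest entries, which had −log10 q values of 1.15, 1.06 and 1.12. By fold enrichment it ranked 21st of 685 peaks, 31st of 2084 and 32nd of 1342. These ranks correspond to a mean percentile of 97.8 with an SD of 0.744 (n = 3). The next peaks in rank lay close by: the peak above and the peak below had 13.3 and 12.6 in replicate 1, 17.7 and 16.6 in replicate 2, and 14.0 and 13.8 in replicate 3.

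**Figure D1:**
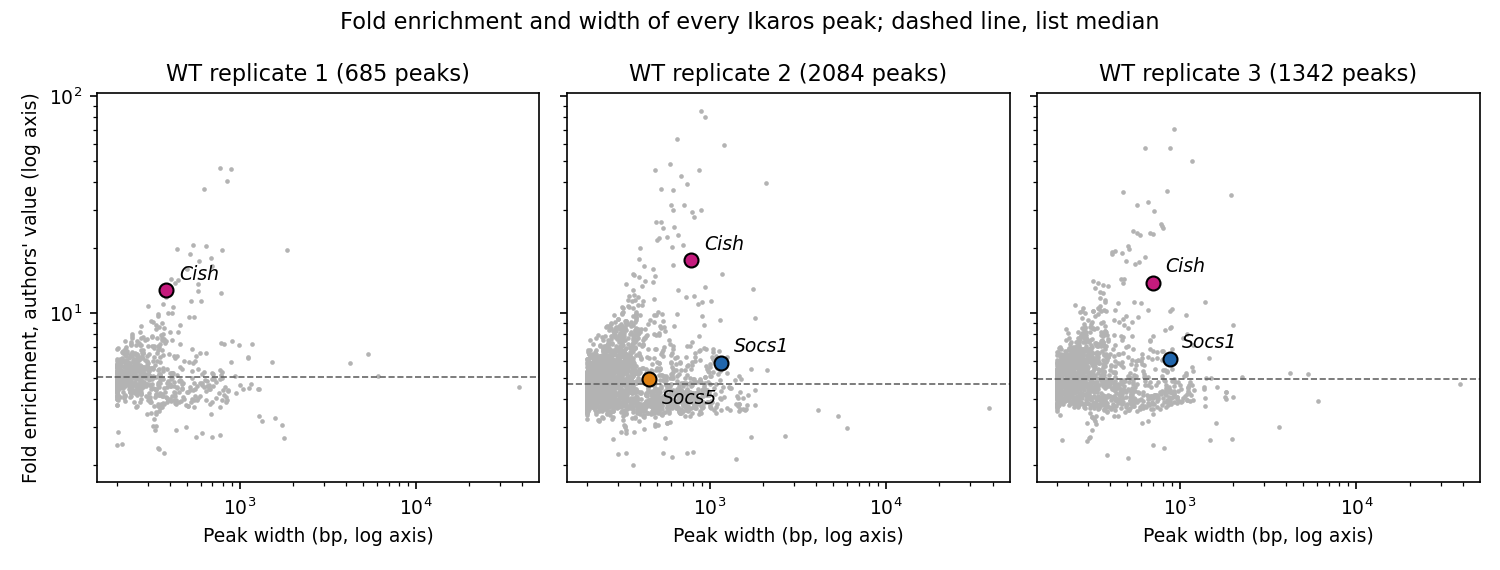
Fold enrichment (y, log axis) against peak width in bp (x, log axis) for every peak of the 3 WT lists, 1 panel per list, with member peaks in colour and the list median as a dashed line. Cish stands among the strong peaks in each panel at 12.7, 17.6 and 13.8, while Socs1 and Socs5 lie near the body of their lists and Socs1 among the wide peaks.

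Among peaks that cover the start of a protein-coding gene, the Cish peak was the strongest in each list. RefSeq starts were held for 17492 of the 21900 genes (79.9%). Peaks that contain such a start numbered 198, 556 and 438 in WT replicates 1, 2 and 3, with median fold enrichments of 5.16, 4.68 and 4.97, and Cish ranked 1st in all lists. Next in order came a peak assigned to both AC061963.1 and Kmt2a, which encodes a histone methyltransferase, at 9.97 in replicate 1. The zinc finger gene Zfp260 followed at 14.8 in replicate 2, and Emsy at 13.76, against 13.83 for Cish, in replicate 3. The ranking over starts was not part of the plan, which held only the rank in each whole list, and these runners-up were named after their values were seen. The lead was thus wide in replicates 1 and 2 and slight in replicate 3. Counting both ends of the span of every protein-coding gene in place of RefSeq starts, Cish ranked 1st of 196, 1st of 553 and 2nd of 426, the last behind a peak at Cenpu with 13.99. With any peak whose midpoint lay within 1 kb of a gene end, it ranked 2nd of 350, 2nd of 959 and 3rd of 727, behind a peak assigned by the authors to Gm21987 with 37.2, 63.3 and 57.4. Among the 500 regions in all lists, Cish ranked 27th by mean percentile, and among the 186 of those over a RefSeq start it ranked 1st. Median mean percentiles of the 2 sets were 64.0 and 64.7. Stronger shared regions therefore existed, but they did not cover a coding start held in the RefSeq promoter table.

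The Cish peaks straddled the start of the gene. They ran from 112 bp before to 270 bp after the RefSeq start in WT replicate 1, from 265 bp before to 517 bp after in replicate 2, and from 369 bp before to 332 bp after in replicate 3. Widths were 383, 783 and 702 bp, at percentiles of 72.7, 91.3 and 88.9 of width in their lists. The replicate 1 peak, from 107296547 to 107296929, lay wholly inside both others, so all 383 bp of it were shared. No other RefSeq gene overlapped the region of 887 bp, and the nearest other protein-coding gene, Mapkapk3, which encodes a MAP kinase-activated kinase, ended 6.41 kb away. Within 100 kb of Cish, 2 further regions were assigned by the authors to other genes. One, named for Hemk1, which encodes a methyltransferase of translation release factors, lay about 30.8 to 31.0 kb from Cish with fold enrichments of 4.97, 6.31 and 6.66 in WT replicates 1, 2 and 3. The other, named for 6430571L13Rik, had 4.00 and 6.11 in replicates 2 and 3. Both were weaker than the region at the Cish start, in every list that held them.

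**Figure D2:**
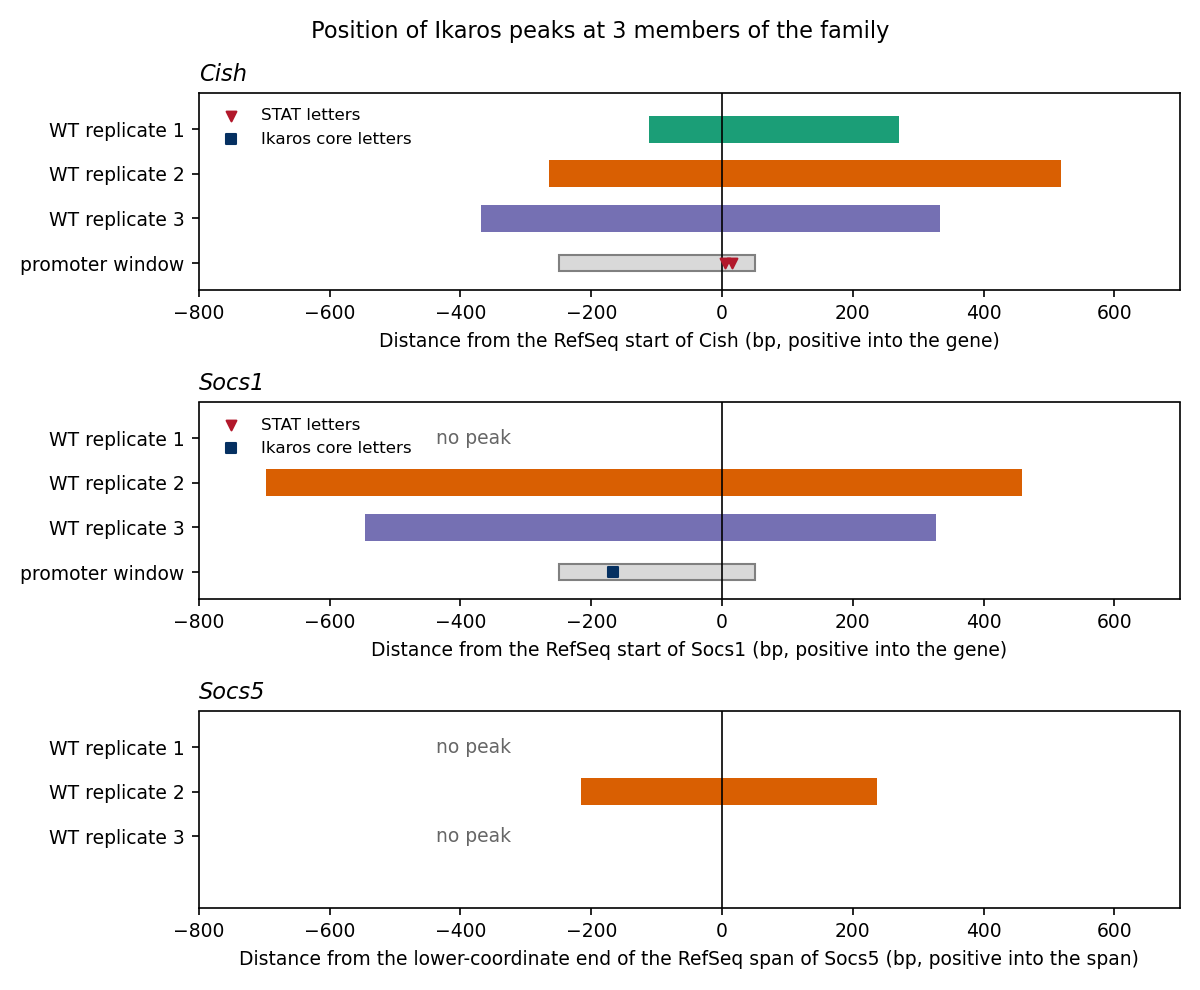
Extent of each list's peak (coloured bars, 1 row per WT replicate) in bp from the RefSeq start of Cish and Socs1 and from the lower-coordinate end of the RefSeq span of Socs5; grey boxes are the 300 bases of the promoter window, with triangles for STAT letters and a square for the Ikaros core. The Cish and Socs1 bars cross 0 in every list that held them, and the replicate 1 bar at Cish, 112 bp before to 270 bp after, fits inside both others.

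The searched part of the Cish peaks, which lies within the promoter window, held a pair of STAT matches and no TGGGAA. In the 300-base window from 250 bases before to 50 after the RefSeq start, TTCNNNGAA occurred as TTCCTGGAA at bases 1 to 9 of the transcript and as TTCTTGGAA at bases 12 to 20. Both matches lay within the peaks of all 3 lists, and both are the capitals of the Cish sequence above. Of 32851 RefSeq promoters of the same length, 8.30% held 1 or more such matches and 0.457% held 2 or more. Among the 519 promoters whose start lay in a region of 2 or more lists, the shares were 7.71% and 0.963%, the latter being 5 promoters with Cish among them. Every TTCNNNGAA match was searched on both strands and counted once, as the letters are their own reverse complement. TGGGAA, searched on both strands, was not in the Cish window, while 25.6% of all promoters and 21.2% of promoters in shared regions held it. The shorter core GGGAA, searched after the promoters had been seen, occurred once in the Cish window, from 198 to 194 bases before the start, inside the peaks of replicates 2 and 3 and outside that of replicate 1. GGAA, the core common to ETS factors and Ikaros, occurred 6 times; it forms the last 4 letters of each STAT match and is held by 96.0% of all promoters. TGANTCA, the letters of AP-1, were not found in any of the 4 member promoters of the table (Cish, Socs1, Socs3 and Socs4), against 7.81% of all promoters. A match of letters is not evidence of binding, and peak sequence outside these windows was not searched.

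Socs1 (ENSMUSG00000038037) encodes an inhibitor that blocks the JAK catalytic site directly, and it had a wide peak of moderate height in 2 of 3 lists. Its RefSeq span is chromosome 16, 10783808 to 10785536. Fold enrichment was 5.90 in WT replicate 2 and 6.16 in replicate 3, at percentiles of 79.2 and 76.8, and replicate 1 listed no peak there. These values were 1.25 and 1.23 times the median of their lists. The peaks were 1157 and 874 bp wide, at percentiles of 97.9 and 93.8 of width, and −log10 q values were 9.16 and 8.43. They ran from 698 bp before to 458 bp after the RefSeq start in replicate 2 and from 546 bp before to 327 bp after in replicate 3. The replicate 3 peak lay wholly within the replicate 2 peak. Among peaks containing a coding start, Socs1 ranked 115th of 556 and 101st of 438. It thus lay below Cish in both lists that held it.

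Absence from WT replicate 1, the shortest list, was common for peaks of this height. Socs1 ranked 434th of 2084 peaks in replicate 2 and 312th of 1342 in replicate 3. It kept its region in 2 lists when all lists were cut to equal length. Whether list length accounts for its absence from replicate 1 was not tested. Of the 209 replicate 2 peaks within 5 percentile points of the Socs1 peak, 68 (32.5%) had a partner in replicate 1 and 114 (54.5%) had one in replicate 3. Of the 135 replicate 3 peaks within 5 points, 69 (51.1%) had a partner in replicate 1 and 120 (88.9%) in replicate 2. Among peaks at least as strong, a partner in replicate 1 was held by 254 of 434 replicate 2 peaks (58.5%) and 214 of 312 replicate 3 peaks (68.6%). By −log10 p in place of fold enrichment, Socs1 stood higher, at percentiles of 86.3 and 80.9 in replicates 2 and 3. The nearest listed peak of replicate 1 was 189 kb from Socs1, at Litaf. At this unknown depth an unlisted peak cannot be told from an unbound site.

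The Socs1 promoter held 1 TGGGAA, from 169 to 164 bases before the start, within the peaks of both lists, and no STAT match. It was the 1 member promoter of the 4 in the table with those letters; Cish, Socs3 and Socs4 had none. That count of 1 in 4 is near the 25.6% of all promoters that hold them. With the shorter GGGAA all 4 member promoters had a match, as did 62.7% of all promoters. The nearest other protein-coding gene of the Socs1 region was Tnp2, which encodes a sperm nuclear protein, 1.70 kb away.

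Socs5 (ENSMUSG00000037104), whose product is linked to restraint of IL-4 and EGF receptor signalling, had a peak in WT replicate 2 alone. It lay on chromosome 17, 87107062 to 87107514, with a fold enrichment of 4.96, at percentile 57.3, and a −log10 q of 3.57. The authors' column places it 164 bp outside the gene, while the RefSeq span, 87107278 to 87137647, begins inside the peak, 216 bp from its lower edge. A non-coding gene, Gm30510, also overlaps the peak in the RefSeq table, and the nearest other protein-coding gene, Cript, is 71.3 kb away. Of 209 replicate 2 peaks within 5 percentile points of it, 86 (41.1%) had a partner in replicate 3 and 40 (19.1%) in replicate 1. By −log10 p in place of fold enrichment its percentile was 44.7, so it lay near the middle of its list by both measures.

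The remaining 5 members had no peak in any list. Socs3, an inhibitor of signalling through the IL-6 family receptor gp130, came closest to one, with a weak peak in replicate 3 assigned to Pgs1, a phospholipid synthesis gene, 16.5 kb away. That peak had a fold enrichment of 3.60, at percentile 2.91. The nearest peaks to Socs3 in replicates 1 and 2 were 184 and 632 kb away. Socs7 had a replicate 2 peak 52.7 kb away, assigned to Mrpl45, and Socs2, a regulator of growth hormone signalling, had a replicate 3 peak 97.6 kb away, assigned to Ube2n, at percentile 8.64. Each of these nearby peaks was in 1 list only. Socs7 and Socs6 encode relatives that bind proteins of insulin signalling, and Socs4 one that acts on the EGF receptor. Socs4 and Socs6 lay farthest from any peak, at 516 kb and 4776 kb from the nearest, both in replicate 2. Peaks are numbered in genome order, and at every member in every list the listed numbers on both sides of the gene followed on without a gap, so no unlisted number falls at these genes. The Socs3 promoter held 1 STAT match, TTCTTAGAA, from 154 to 146 bases before the start, so these letters were present at a member with no peak as well as at Cish. The match, at 117969512 to 117969520, lies inside the RefSeq span of Socs3, 117966079 to 117970336. The start used for this promoter is therefore not the end of that span.

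**Figure D3:**
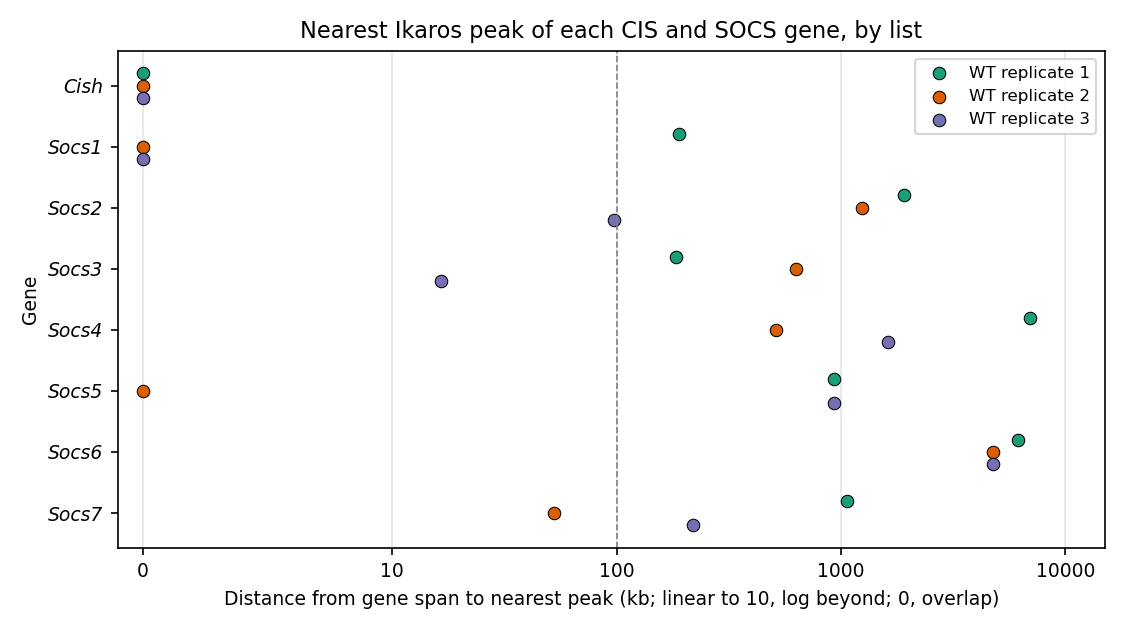
Distance in kb from the RefSeq span of each gene to the nearest peak of each WT list (coloured points; axis linear to 10 kb and logarithmic beyond; 0 means overlap; dashed line at 100 kb). Cish is at 0 in every list, Socs1 in 2 and Socs5 in 1, and the nearest other point is the replicate 3 peak 16.5 kb from Socs3.

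Other genes of cytokine signalling were taken from a list of 69, in 6 roles. Of these, 21 had a region in 1 or more lists (30.4%, beside 9.39% of all protein-coding genes). A region in 2 or more lists was held by 11 (15.9%, beside 4.38%). The 69 genes were a chosen list, not matched to all genes for span or expression, and the difference was not tested. The count of 11 depended on each list, and was 7, 3 and 5 without WT replicates 1, 2 and 3. The share of all protein-coding genes was not recomputed with a list left out. A fall particular to these genes therefore cannot be told from a general one. Only 2 of the 69, Cul5 and Ptpn1, had a region in all lists (2.90%, beside 2.00% of all genes). The highest percentile among them was 86.1, at Wsb2 in replicate 3, below Cish in every list.

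Cul5, the scaffold of the ubiquitin ligase that the SOCS box recruits, had fold enrichments of 5.04, 5.25 and 5.15 in WT replicates 1, 2 and 3, at percentiles of 48.2 to 65.8. The authors assigned this region to Gm16124 as well. Cul5 was the 1 of 9 ligase partners with a region in any list (11.1%, near the 9.39% of all protein-coding genes). Ptpn1, which encodes a phosphatase that acts on JAK kinases, had 6.47, 6.21 and 4.71, at percentiles of 39.6 to 83.5. The phosphatase gene Ptpn11, the STAT inhibitor gene Pias4 and the ERK phosphatase gene Dusp6 each had a region in 2 lists, so that 4 of 19 other restraining genes had one. Of 20 receptor genes, 4 had a region in 2 lists (20.0%, beside the same 4.38%): Il2ra, Il4ra, Il21r and Ifngr1. Il21r was the strongest of them, with 5.46 and 5.77 in replicates 2 and 3, and its region lay 9.2 kb from the gene by the authors' column (9.23 and 9.20). Among 10 other SOCS box genes, Wsb2 had 5.60 and 6.87 in replicates 1 and 3, and Spsb3 had 5.61 and 6.37 in replicates 1 and 2. Mean percentiles of these, 76.6 and 76.1, stood beside the 78.0 of Socs1, each over a different pair of lists. Kinase and STAT genes had no region in 2 or more lists. Jak1 and Tyk2 had 1 peak each, in replicate 3, and 0 of 7 STAT genes had a peak in any list. Since 9.39% of all protein-coding genes had a region in any list, 0 among 7 genes is near that share.

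**Figure D4:**
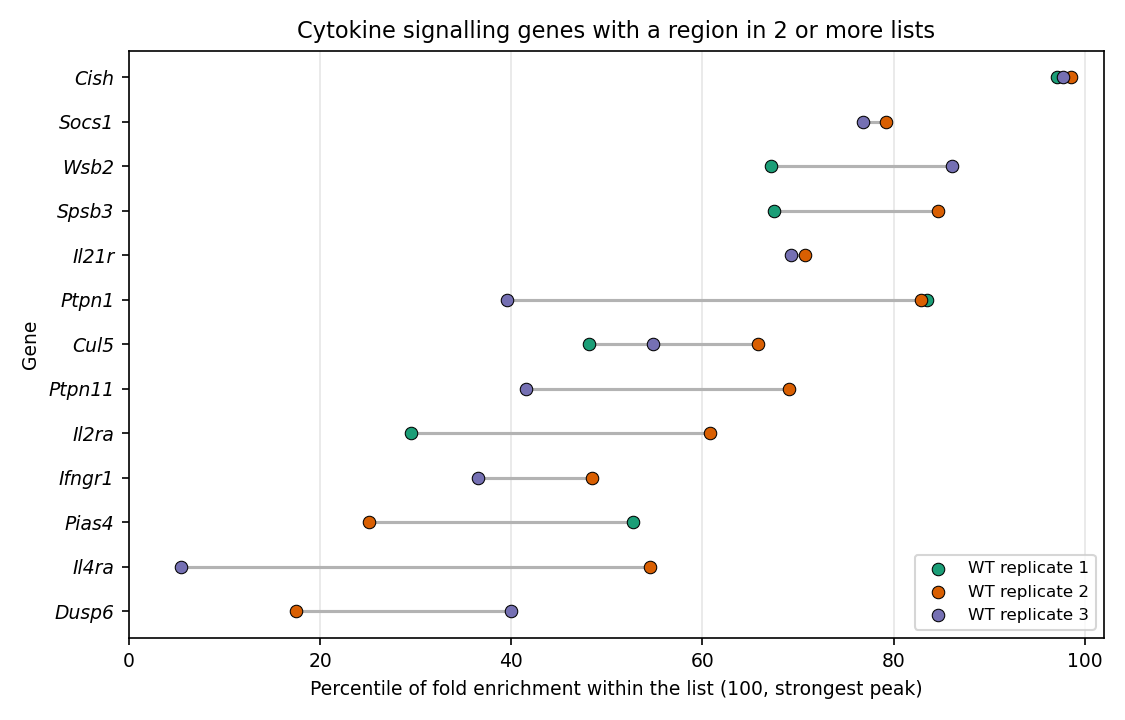
Percentile of fold enrichment within each WT list (x; 100 is the strongest peak; points coloured by replicate, joined by a grey line from lowest to highest) for Cish, Socs1 and the 11 other cytokine signalling genes whose region was shared by at least 2 lists. Cish lies at 97.1 to 98.6, above every other gene shown in every list; genes are ordered by mean percentile over the lists that hold them, so Socs1, at 76.8 to 79.2, is drawn next although Spsb3 (84.7) and Ptpn1 (82.8) exceeded it in replicate 2 and Wsb2 (86.1) in replicate 3.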

How the data were processed

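Ikaros ChIP-seq of 3 WT libraries was analysed from the authors' peak lists. Per the submitters' processing notes, Subread, Picard, SAMtools, MACS2, edgeR 3.20.0 and build mm10 were used, with no roles given. The control library and q threshold are not given in the sources used here. Values per peak, per the file headers, are a fold enrichment (a linear ratio), −log10 p and q values, a score, a width and a distance to a gene. The deposited score is the −log10 q multiplied by 10 and cut to a whole number (true for 100% of peaks).

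Replicate numbers follow the sample titles, and the authors' peak names for WT replicate 3 carry the number 4. Rows repeating a peak were reduced to 1, from 800, 2414 and 1595 to 685, 2084 and 1342. Peak numbers not listed (41, 50 and 42) were not analysed here. Peaks sharing at least 1 base formed regions. A gene counted as having a region in 2 lists when a peak of that region named it and the region held peaks of 2 lists. Of 2145 protein-coding names in the lists, 2051 (95.6%) matched the RefSeq table (GRCm38.p6); all 8 members matched, and 4 had a promoter there. The naming rule took the members, pathway genes whose region at least 2 lists shared, and the nearest neighbouring coding genes. Other genes (Jak1, Tyk2, Kmt2a, AC061963.1, Zfp260, Emsy, Cenpu, Gm21987, Gm30510, Gm16124 and genes the authors gave to nearby peaks) were named after their values were seen. Members and lists were chosen with earlier results of these data known. Fold enrichments were ranked within a list only, and no test was run. The mean and SD of fold enrichment at Cish run over the lists and may include differences of scale between them. Region merging, ranking and motif search were tested on simulated data. Python 3.11.15, NumPy 2.4.6, pandas 2.3.3, SciPy 1.17.1 and matplotlib 3.10.9 were used.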

Additional observations from a re-analysis of the deposited data

How the results depend on the processing

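No paired analysis was possible because the lists compare no groups and Ikzf1-deleted libraries were not analysed here. Whole peaks were not searched for motifs, as only promoter windows were used. Depth is unknown, so unlisted sites cannot be told from unbound ones. Of 69 values recomputed, 41 stayed close to the value reported: within 1.5 times for a count, within 1 SD over lists for a percentile of Cish or Socs1, and within the 95% Clopper-Pearson interval for Socs5. Cish kept a region in every list under each alternative run. At a −log10 q of 5 or more, 1 member besides Cish (Socs1) and 2 pathway genes in 2 or more lists were left. At 10 or more, 1 member with a peak, 1 in 2 or more lists, 1 region and 0 members besides Cish were left; stricter thresholds leave fewer by construction. With any member within 100 kb counted, members with a peak numbered 6, their regions 8 and members besides Cish 5. With equal list lengths, 1 member besides Cish was left (Socs1, still in 2 lists). Leaving out 1 replicate gave 2 to 3 members with a peak, 1 to 2 in 2 or more lists, 1 to 2 in all remaining lists, 2 to 3 regions, 1 to 2 members besides Cish and 3 to 7 pathway genes. Shares of all protein-coding genes were not recomputed under these alternatives, so the lower counts have no matching background. The Cish percentile was 95.3 in replicate 1 by −log10 p, and 99.7, 99.9 and 99.7 in replicates 1, 2 and 3 among peaks within 1 kb of a gene end.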
